A study of Mus musculus with 5 samples.

Results

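The genes described are 31 mouse genes of sterol and fatty-acid synthesis, measured in natural killer T (NKT) cells sorted from the thymus. They were chosen by name from the pathway, and each was represented by 1 probe. All 31 had a probe, out of 20022 genes with a probe on the array. Where a gene had several probes, the one with the highest mean log2 signal over the 5 arrays was taken, so the only measured values that entered the choice of probe were those mean signals. The gene set itself was proposed with earlier results of these arrays known, so the values below describe the genes and are not independent evidence of a direction. Of the 31 genes, 30 were well above background on at least 2 arrays and were tested. Scd1 stayed under the background limit on all 5 arrays.

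The study compared NKT cells of wild-type C57BL/6 mice (3 arrays) with those of IL15ko mice (2 arrays), which carry the genotype IL15-/- on the same background and so lack the cytokine interleukin-15 in every cell of the animal. NKT cells, a T-cell type whose receptor binds lipids held by CD1d, were sorted as CD3e+ CD1d tetramer+ cells out of enriched T cells, 10 thymi to a pool, with no agent added. The age of the mice is not given in the sources used here. The labels do not say whether replicates are separate pools of thymi. The p-values therefore reflect the spread among these 5 samples alone, and that spread may be technical. In bulk samples, fewer cells of a type and less RNA per cell cannot be told apart.

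Cholesterol is built from acetyl-CoA through mevalonate, isoprenoid units and squalene, and then through a series of sterol intermediates. Fatty acids are built from the same acetyl-CoA by acetyl-CoA carboxylase and fatty acid synthase. Genes of both branches are driven by the SREBP transcription factors, which are held in the endoplasmic reticulum by Scap and the Insig proteins while sterols are plentiful and are released to the nucleus when sterols fall. T cells raise this programme when they grow and divide, and lipids are also what NKT cells recognise.

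All values are levels on a log2 scale: the processed signal of the probe minus the 75th percentile of the array. Differences are IL15ko minus wild-type with the moderated standard error (SE) of limma, and adjusted p-values are those of limma with Benjamini-Hochberg adjustment over all 11997 tested genes. The share of probes well above background was 44.6% to 49.6% on wild-type arrays, 45.2% on IL15ko 1 and 33.9% on IL15ko 2, the dimmest array. The lowest level that counted as well above background was accordingly -4.92 on IL15ko 2 and lay between -7.22 and -6.17 on the other 4 arrays. Wild-type 1 and 2 resembled each other more closely (robust SD of their log2 difference 0.17) than either resembled wild-type 3 (0.343 and 0.376). The probe for Il15, the deleted gene, lay under the background limit on all 5 arrays and so checks nothing about the labels. The T-cell genes Cd3d and Cd3e and the NKT factor Zbtb16 were well above background on all 5 arrays.

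Most genes of the pathway had small differences between the groups, and 3 that take part in sterol synthesis, sensing and transport were lower in IL15ko. Of the 30 tested members, 3 were called lower (Sqle, Insig1 and Stard4), 0 higher and 27 did not pass, where 3.58% of all tested genes were called lower and 3.75% higher (7.33% in either direction). Sqle and Insig1 met the filter of at least 2 arrays through the wild-type arrays alone (3 wild-type arrays each, with 0 and 1 IL15ko arrays), so their calls are those of genes admitted by the group in which they were high. With only genes well above background on all 5 arrays, neither was among the 25 members tested, and 2 were called higher and 2 lower, where 7.28% and 4.91% of all genes tested that way were. A total of 10 of the 30 members had an unadjusted p under 0.05, against 27.5% of all tested genes. With a trended and robust variance prior 2 members were called higher and 3 lower, and 12.6% of all tested genes were called in either direction. The log2 difference lay within 0.5 of 0 in 22 of the 30 (73.3%), against 70.3% of all tested genes. It was above 0 in 13 and below 0 in 17, with a median of -0.14 against 0.01 over all tested genes. The 2 groups did not overlap in 15 members, 7 with IL15ko higher and 8 with IL15ko lower, where 25.1% of all tested genes had IL15ko higher without overlap and 22.1% lower (47.2% in either direction). The number of calls rests on single arrays, among the members and over all tested genes alike. Without wild-type 1, 2 and 3 and IL15ko 1 and 2 in turn, 0.075%, 0.875%, 6.53%, 2.8% and 1.6% of all tested genes were called. Leaving out wild-type 1 left 0 members called, wild-type 2 left 1, wild-type 3 left 2 (1 of them higher), IL15ko 1 left 3 and IL15ko 2 left 1.

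**Figure D1:**
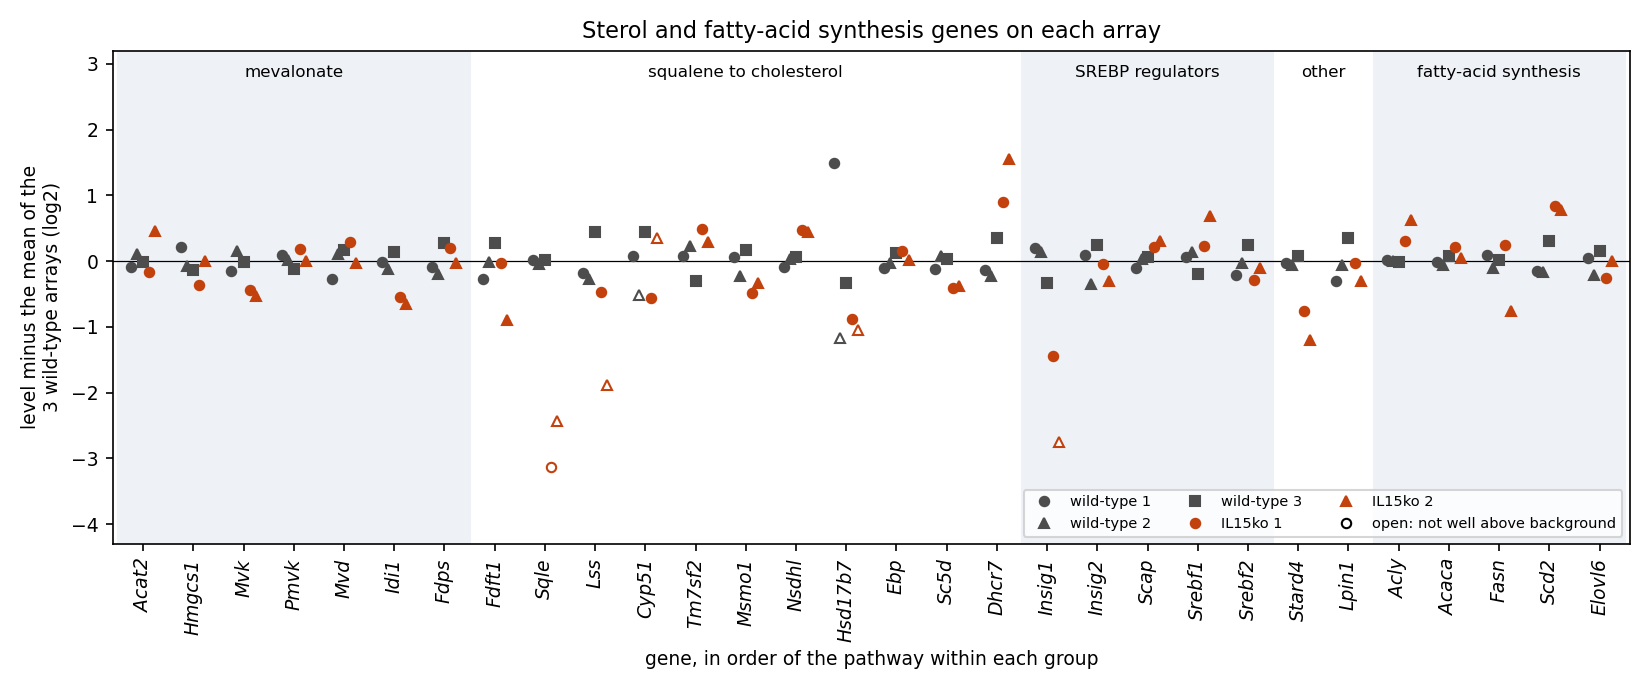
Level of each of the 30 tested genes on each of the 5 arrays, minus the mean of the 3 wild-type arrays (log2), with genes in pathway order within their group on the x axis. Open symbols are values not well above background. The groups do not overlap in 15 of the 30 genes, against 47.2% of all tested genes. Among these 15, Sqle, Insig1 and Stard4 have both IL15ko arrays below all wild-type arrays, and Dhcr7 and Scd2 have both above. Hsd17b7 is set apart by wild-type 1.

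The mevalonate steps gave no call. Of 7 genes, 0 passed the test and 2 had an unadjusted p under 0.05 (Mvk and Idi1), against 7.33% and 27.5% of all tested genes. The log2 differences of the 7 ran from -0.60 to 0.14 with a median of 0.09. Idi1, which encodes the isomerase that makes dimethylallyl diphosphate, was at -3.00, -3.11 and -2.84 on wild-type arrays 1 to 3 and at -3.53 and -3.63 on IL15ko 1 and 2. Both IL15ko values lay under all wild-type values, and the log2 difference was -0.60 ± 0.14, which missed the threshold (adjusted p = 0.0684). It was called lower when only genes well above background on all 5 arrays were tested (adjusted p = 0.041). Mvk, mevalonate kinase, was at -1.40, -1.10 and -1.27 in wild-type and at -1.69 and -1.79 in IL15ko, also without overlap, with a log2 difference of -0.49 ± 0.15 (adjusted p = 0.111). A second, dimmer Mvk probe, well above background on all 5 arrays, had a log2 difference of -0.18.

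The other mevalonate genes overlapped between the groups. Hmgcs1, the synthase that makes HMG-CoA, had levels of -0.62, -0.90 and -0.97 in wild-type and -1.20 and -0.82 in IL15ko, and a log2 difference of -0.18 (95% confidence interval -0.66 to 0.30). The differences were 0.14 for Acat2, the cytosolic thiolase of the first step, 0.10 for Pmvk, 0.13 for Mvd and 0.09 for Fdps, which makes farnesyl diphosphate. Their 95% confidence intervals reached from -0.41 to 0.70, -0.26 to 0.46, -0.37 to 0.63 and -0.40 to 0.57. Differences anywhere within those intervals remain compatible with these arrays.

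From squalene to cholesterol, Sqle stood apart from the other 10 enzymes. Sqle encodes squalene epoxidase, the oxygen-dependent step that commits squalene to sterols. Its level was -3.55, -3.62 and -3.55 on wild-type arrays 1 to 3 and -6.70 and -6.00 on IL15ko 1 and 2. The 3 wild-type values were nearly equal, and neither IL15ko value was well above background. As processed signals, which are not scaled between arrays, these were 97.2, 72 and 167 units in wild-type and 13 and 6.89 units in IL15ko, where the lowest signals well above background were 14.6 and 14.5 units on IL15ko 1 and 2.

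In the processing reported here Sqle fell by about 4.45-fold or more. This bound counts from the wild-type mean to the higher of each IL15ko array's own value and its lowest level well above background. The bound is approximate, because a probe somewhat above that lowest level can still fail the background limit. On wild-type 2, where the lowest level was -6.34, Cyp51 at -6.20 and Hsd17b7 at -6.12 failed it. The adjusted p of limma (0.00881) belongs to the measured log2 difference of -2.78 ± 0.23, not to the bound (log2 difference -2.16). Sqle was tested because its 3 wild-type arrays passed the background limit. The size of this fall depends on the processing. With median spot signals, normexp correction and an added offset of 50 the log2 difference was -0.54 (adjusted p = 0.525). In the authors' deposited table it was -1.44 (adjusted p = 0.0674). Both falls were smaller than the bound of 4.45-fold. The call was also lost without wild-type 1 (adjusted p = 0.0609) and without the filter on dim probes (adjusted p = 0.0813). In the other 11 of 15 alternatives Sqle was called lower, and its log2 difference was below 0 in all 15.

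**Figure D2:**
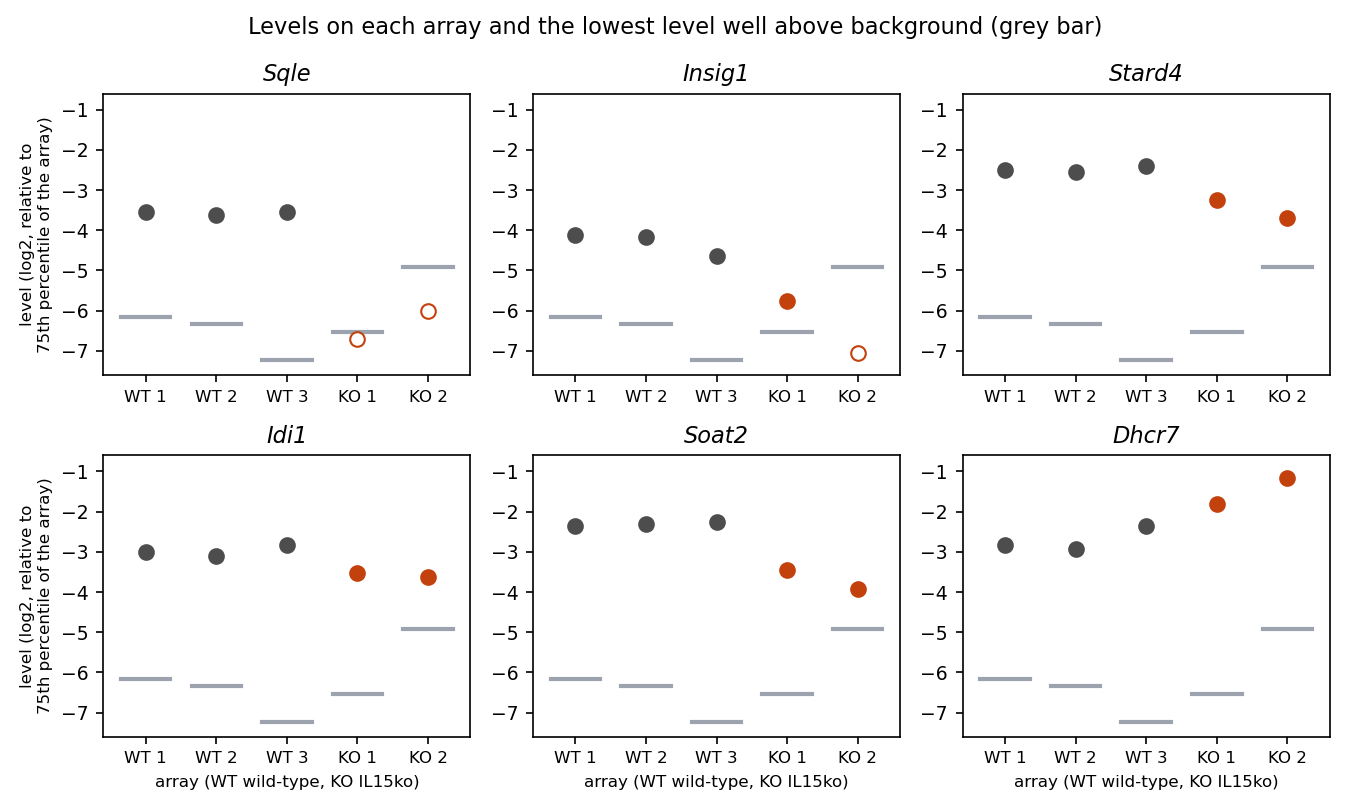
Levels of 6 sterol genes on the 5 arrays (log2 relative to the 75th percentile of the array), with a grey bar at the lowest level that counted as well above background on that array and open circles below background. The bar of IL15ko 2 is at -4.92, above the values of Sqle and Insig1 on that array, whereas Stard4, Idi1, Soat2 and Dhcr7 lie above the bar on all arrays.

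Dhcr7, the last reductase of the pathway, had values in the opposite direction. It was at -2.84, -2.93 and -2.35 in wild-type and at -1.80 and -1.16 in IL15ko, all well above background. Both IL15ko values exceeded all wild-type values, and the log2 difference was 1.22 ± 0.28, which missed the threshold (adjusted p = 0.0645). It was called higher in 2 of 16 alternatives, those with a trended and robust variance prior (adjusted p = 0.0207) and with only genes above background on all arrays (adjusted p = 0.0362). Its log2 difference was 0.90 without IL15ko 2 and 1.55 without IL15ko 1. Nsdhl, a dehydrogenase that helps remove methyl groups from the sterol ring, had a log2 difference of 0.46 ± 0.12 with groups that did not overlap (adjusted p = 0.0921). Tm7sf2, a sterol reductase, had one of 0.40 ± 0.20 (adjusted p = 0.26), and a second, dimmer Tm7sf2 probe, well above background on 4 arrays, had one of 0.85.

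Sc5d, a sterol desaturase, and Msmo1, a methyl sterol oxidase, had log2 differences of -0.39 ± 0.13 (adjusted p = 0.134) and -0.41 ± 0.17 (adjusted p = 0.192), with both IL15ko arrays below all wild-type arrays. Ebp, the sterol isomerase, was at 2.05, 2.12 and 2.28 in wild-type and 2.31 and 2.17 in IL15ko, a log2 difference of 0.09 (95% confidence interval -0.27 to 0.44). Fdft1, squalene synthase, was at -3.13, -2.87 and -2.58 in wild-type and -2.89 and -3.76 in IL15ko. Only IL15ko 2 lay below the wild-type range, and the log2 difference was -0.47 ± 0.31 (adjusted p = 0.38).

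Lss, Cyp51 and Hsd17b7 were dim on at least 1 array. Lss, which closes the sterol ring, was at -4.24, -4.33 and -3.61 in wild-type and at -4.53 and -5.94 in IL15ko, the last not well above background. Its log2 difference of -1.17 ± 0.47 (adjusted p = 0.185) was -0.47 without IL15ko 2 and -1.88 without IL15ko 1. Cyp51, the lanosterol demethylase, was well above background on 3 of 5 arrays and had a log2 difference of -0.10 ± 0.39. Hsd17b7, a sterol ketoreductase, was at -3.46 on wild-type 1 and between -6.12 and -5.29 on the other 4 arrays, so that its log2 difference of -0.96 ± 0.77 comes with a wild-type SD of 1.36. Over the 11 genes from squalene on, the median log2 difference was -0.39. Of these 11, 1 was called lower and 0 higher, against 3.58% and 3.75% of all tested genes. Over the 18 genes of the whole cholesterol branch the median was -0.14. Over the 14 of these 18 that were well above background on all 5 arrays the median was 0.09.

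Among the regulators, Insig1 was lower and the SREBP genes themselves did not pass. Insig1 encodes the sterol-sensing anchor that keeps the SREBP-Scap complex in the endoplasmic reticulum, and it is itself a target of SREBP. Its level was -4.12, -4.18 and -4.64 in wild-type, -5.76 on IL15ko 1 and -7.06 on IL15ko 2, where it was not well above background. Both IL15ko arrays lay below all wild-type arrays, and it too had enough arrays for testing from wild-type alone. The log2 difference was -2.10 ± 0.41 (adjusted p = 0.0476), and it was -1.03 when IL15ko 2 was set to its lowest level well above background. The call was lost in 10 of 15 alternatives, among them leaving out wild-type 1 (adjusted p = 0.159), wild-type 2 (0.139), wild-type 3 (0.0695) or IL15ko 2 (log2 difference -1.45, adjusted p = 0.105). With normexp and an offset of 50 the log2 difference was -0.10, and in the authors' deposited table it was -0.96.

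Insig2, the other anchor of this family, had a log2 difference of -0.17 (95% confidence interval -0.73 to 0.38). A second Insig2 probe, well above background on all 5 arrays, had one of -0.57. Srebf2, the SREBP that mainly drives cholesterol genes, was at -3.04, -2.85 and -2.58 in wild-type and -3.11 and -2.93 in IL15ko. Its log2 difference was -0.20 ± 0.18 (adjusted p = 0.512). A second, dimmer Srebf2 probe, well above background on 3 arrays, had one of 0.03. Srebf1, which mainly drives fatty-acid genes, was at -3.59, -3.52 and -3.85 in wild-type and -3.42 and -2.96 in IL15ko. The IL15ko values of Srebf1 were the highest of the 5, and its log2 difference was 0.46 ± 0.20 (adjusted p = 0.21). Scap, the escort protein, had one of 0.25 ± 0.13 (adjusted p = 0.276).

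The promoter of Insig1 is printed because Insig1 is the only one of the 3 called genes with a promoter in the table used. It is set beside those of Hmgcs1, whose groups overlapped, and Idi1, whose groups did not overlap. Each is the 250 bases before the RefSeq start on mouse assembly GRCm38.p6, all on the plus strand, with capitals for matches on either strand to TCACNCCAC (letters like the sterol response element bound by SREBP), CCAAT (bound by NF-Y) and GGGCGG (bound by Sp1). In these 3 sequences 0 matches overlapped another.
Insig1, chr5:28071162-28071411: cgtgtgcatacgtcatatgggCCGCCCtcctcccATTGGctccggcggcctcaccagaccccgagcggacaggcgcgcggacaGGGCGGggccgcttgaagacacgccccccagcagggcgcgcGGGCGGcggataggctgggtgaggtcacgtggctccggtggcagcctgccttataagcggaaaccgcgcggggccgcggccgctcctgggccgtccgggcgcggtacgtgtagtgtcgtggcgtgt
Hmgcs1, chr13:119690101-119690350: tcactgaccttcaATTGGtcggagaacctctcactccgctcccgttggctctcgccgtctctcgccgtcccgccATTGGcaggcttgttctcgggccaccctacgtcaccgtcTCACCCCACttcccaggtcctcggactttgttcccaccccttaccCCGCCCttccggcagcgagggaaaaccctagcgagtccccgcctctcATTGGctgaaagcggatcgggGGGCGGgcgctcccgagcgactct
Idi1, chr13:8885356-8885605: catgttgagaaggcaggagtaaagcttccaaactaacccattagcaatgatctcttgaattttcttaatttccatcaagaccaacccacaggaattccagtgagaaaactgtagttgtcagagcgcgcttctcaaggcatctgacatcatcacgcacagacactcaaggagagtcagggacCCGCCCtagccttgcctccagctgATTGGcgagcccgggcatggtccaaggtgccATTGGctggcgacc
Insig1 held 0 matches to TCACNCCAC, 1 to CCAAT and 3 to GGGCGG. Hmgcs1 held 1, 3 and 2 and Idi1 0, 2 and 1. A promoter was found for 25 of the 31 members and for 9636 tested genes, some of them with several starts, any of which could match. CCAAT was found in 19 of the 25 (76%) against 40.4% of the tested genes. GGGCGG was found in 20 (80%) against 60.8%, and TCACNCCAC in 1 (4%) against 1.21%. In the cholesterol branch 14 of 15 genes held CCAAT and 14 held GGGCGG, and of 4 fatty-acid genes 1 held each. A match describes letters and is not a measured binding site.

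Stard4, which encodes a carrier that moves cholesterol between membranes and is a target of SREBP, was well above background on all 5 arrays. It was at -2.51, -2.54 and -2.41 in wild-type and at -3.25 and -3.69 in IL15ko, with no overlap. Stard4 fell 1.98-fold (95% confidence interval 1.45 to 2.68, log2 difference -0.98 ± 0.17, adjusted p = 0.0372). The call was lost in 11 of 16 alternatives, among them leaving out wild-type 1 (adjusted p = 0.148), wild-type 2 (0.124), wild-type 3 (0.0694) or IL15ko 2 (0.108), while the log2 difference stayed between -1.20 and -0.46. A second, dimmer Stard4 probe, well above background on 3 arrays, had a log2 difference of -0.27. Lpin1, a phosphatidate phosphatase, had a log2 difference of -0.16 ± 0.23 (adjusted p = 0.68).

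The fatty-acid branch gave no call, with 0 of 5 tested genes past the threshold and 2 at an unadjusted p under 0.05 (Acly and Scd2). Over all tested genes 7.33% passed the threshold and 27.5% had an unadjusted p under 0.05. The median log2 difference of the branch was 0.13. Scd2, the desaturase that puts a double bond into saturated fatty acids, was at 0.78, 0.76 and 1.23 in wild-type and at 1.76 and 1.70 in IL15ko. Both IL15ko values lay above all wild-type values, with a log2 difference of 0.81 ± 0.19 (adjusted p = 0.0696). It was called higher in 3 of 16 alternatives and its log2 difference lay between 0.72 and 0.96 in all of them. Its paralogue Scd1 had processed signals of 2.44 to 4.74 units, under the background limit on every array.

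Acly, which makes cytosolic acetyl-CoA from citrate and so feeds both branches, was at 1.87, 1.86 and 1.84 in wild-type and at 2.16 and 2.49 in IL15ko. The groups did not overlap, and the log2 difference was 0.47 ± 0.15 (adjusted p = 0.126). A second, dimmer Acly probe had a log2 difference of -0.75, so the 2 probes of this gene disagreed in sign. Fasn, fatty acid synthase, was at -3.70, -3.90 and -3.77 in wild-type and at -3.54 and -4.55 in IL15ko, on both sides of the wild-type range (log2 difference -0.25 ± 0.31). Acaca, acetyl-CoA carboxylase, had one of 0.13 (95% confidence interval -0.20 to 0.45). Another, dimmer Acaca probe, well above background on 4 arrays, had a log2 difference of -0.38, opposite in sign. Elovl6, which lengthens palmitate, had one of -0.12 (-0.56 to 0.32). Of 13 further probes of members, 8 were well above background on at least 2 arrays, and 5 of these 8 had the sign of the chosen probe.

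**Figure D3:**
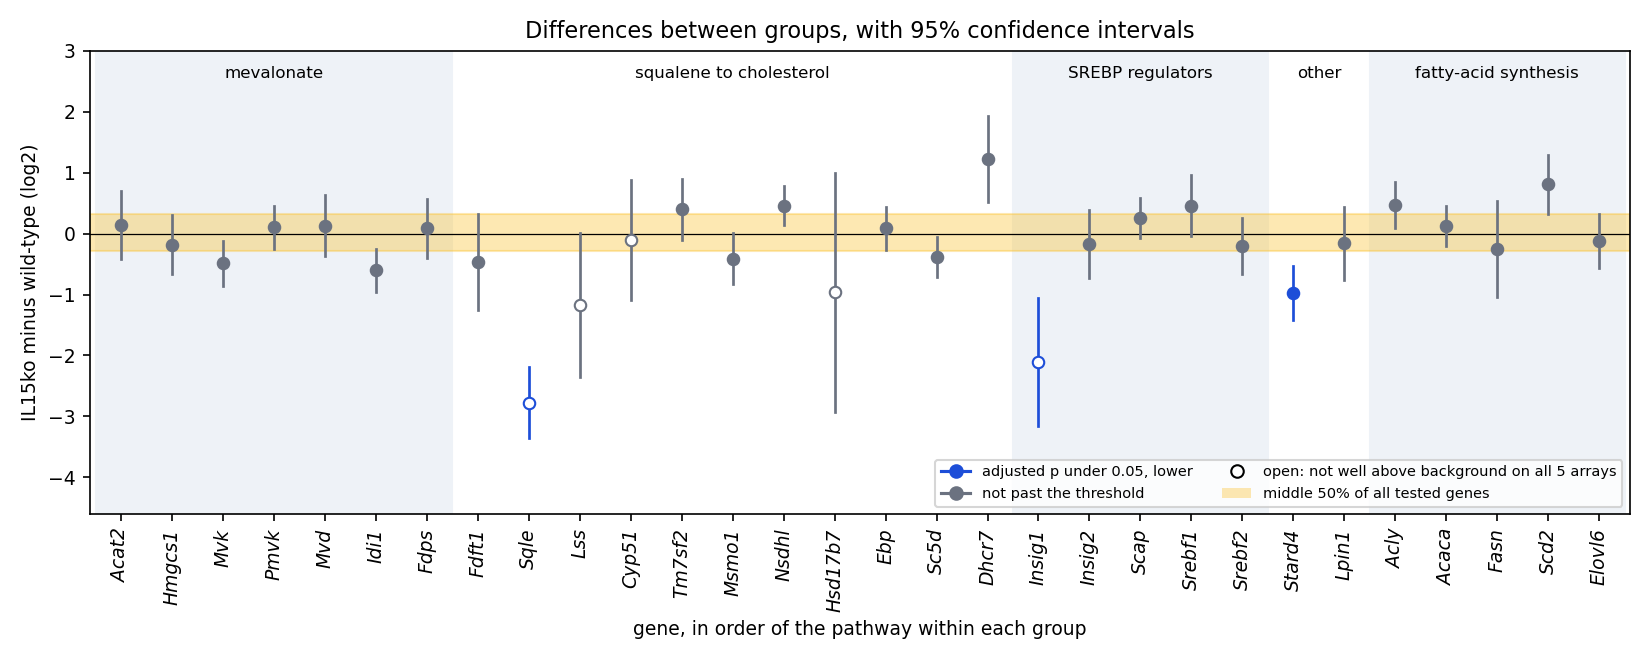
Log2 difference (IL15ko minus wild-type) of each tested gene with its 95% confidence interval, in pathway order. The shaded band is the middle 50% of all tested genes, from -0.29 to 0.32, and blue marks an adjusted p under 0.05. Sqle at -2.78, Insig1 at -2.10 and Stard4 at -0.98 are the 3 blue points, and open points were not well above background on every array.

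Other genes of sterol and lipid handling, from lists that hold none of the members, gave 1 call among 49 tested, Soat2, with 14 at an unadjusted p under 0.05 (27.5% of all tested genes were). Soat2, which esterifies cholesterol for storage, was at -2.36, -2.30 and -2.25 in wild-type and at -3.44 and -3.93 in IL15ko. All 5 values were well above background. Soat2 fell 2.61-fold (95% confidence interval 1.89 to 3.59, adjusted p = 0.0203), a call lost in 7 of 16 alternatives. Among these were leaving out wild-type 1 (adjusted p = 0.0938), wild-type 2 (0.0828) or IL15ko 2 (0.0612), no filter on dim probes (0.129) and normexp with an offset of 50, where the log2 difference was -0.63 (adjusted p = 0.189).

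Of 6 tested further sterol synthesis genes 0 passed, with 0 at an unadjusted p under 0.05 and log2 differences from 0.00 to 0.52. Of 9 tested further SREBP targets and control genes 0 passed, with 3 at an unadjusted p under 0.05 and log2 differences from -0.34 to 0.74. Of 19 tested genes of further fatty-acid and glycerolipid synthesis 0 passed, with 5 at an unadjusted p under 0.05 and log2 differences from -0.68 to 0.71. Of 15 tested genes of sterol efflux, storage and the LXR receptors, Soat2 was the only call. In that list 6 had an unadjusted p under 0.05, and the log2 differences ran from -1.38 to 0.89. Over all tested genes 7.33% were called and 27.5% had an unadjusted p under 0.05. The efflux pumps Abca1 and Abcg1 had log2 differences of 0.61 ± 0.18 (adjusted p = 0.104) and -0.52 ± 0.16 (adjusted p = 0.116).

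Other cell markers and cell-cycle genes differed between the same arrays, and their part in these results was not tested. Over all tested genes 3.75% were called higher and 3.58% lower. Of 11 tested NKT and T-cell identity genes 3 were called higher (Zbtb16, Slamf6 and Cd5) and 0 lower. Of 28 tested cell-cycle genes 8 were called higher and 0 lower, with a summed level of 22.2 to 25.5 in wild-type and 33.4 to 39.7 in IL15ko (linear units in which the 75th percentile of an array is 1). Of 6 tested NK-cell and innate lymphoid genes 3 were called lower, with a summed level of 14.9 to 16.2 in wild-type and 3.33 to 3.95 in IL15ko, while Ncr1 lay under the background limit on all 5. Of 4 tested genes on the double-positive thymocyte list 3 were called higher (Ccr9, Themis and Sox4). Dntt, the other tested gene, was well above background on all 5 arrays, with a log2 difference of 0.08 ± 0.78. The summed level of the list was 0.822 to 0.85 in wild-type and 2.47 on both IL15ko arrays, most of it from Ccr9. Rag1, Rag2, Ptcra, Cd8a and Cd8b1 lay under the background limit on all 5 arrays. Of the 7 macrophage and dendritic cell genes with a probe, only Csf1r was tested (log2 difference -2.29 ± 0.46, adjusted p = 0.0509), and Lyz2, Itgax, Adgre1, Fcgr1 and Flt3 lay under it throughout. The summed level of that list was 0.42 to 0.844 in wild-type and 0.134 to 0.195 in IL15ko, most of it from Csf1r alone. Of 7 B-cell genes 2 were tested (Cd79b and Cd22, well above background on all 5 arrays) and 0 called. Of 8 genes of thymic epithelium and stroma 3 were tested and 0 called, and Pecam1 was well above background on all 5 arrays. Epcam was well above background on 2 wild-type and 0 IL15ko arrays (log2 difference -1.73 ± 0.78, adjusted p = 0.223). Krt5 was so on 3 wild-type arrays and 1 IL15ko array (-0.07 ± 0.32). Of 3 red blood cell genes with a probe only Hba-a1 was tested, detected on 3 wild-type arrays and 1 IL15ko array (-0.51 ± 0.36, adjusted p = 0.4).

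**Figure D4:**
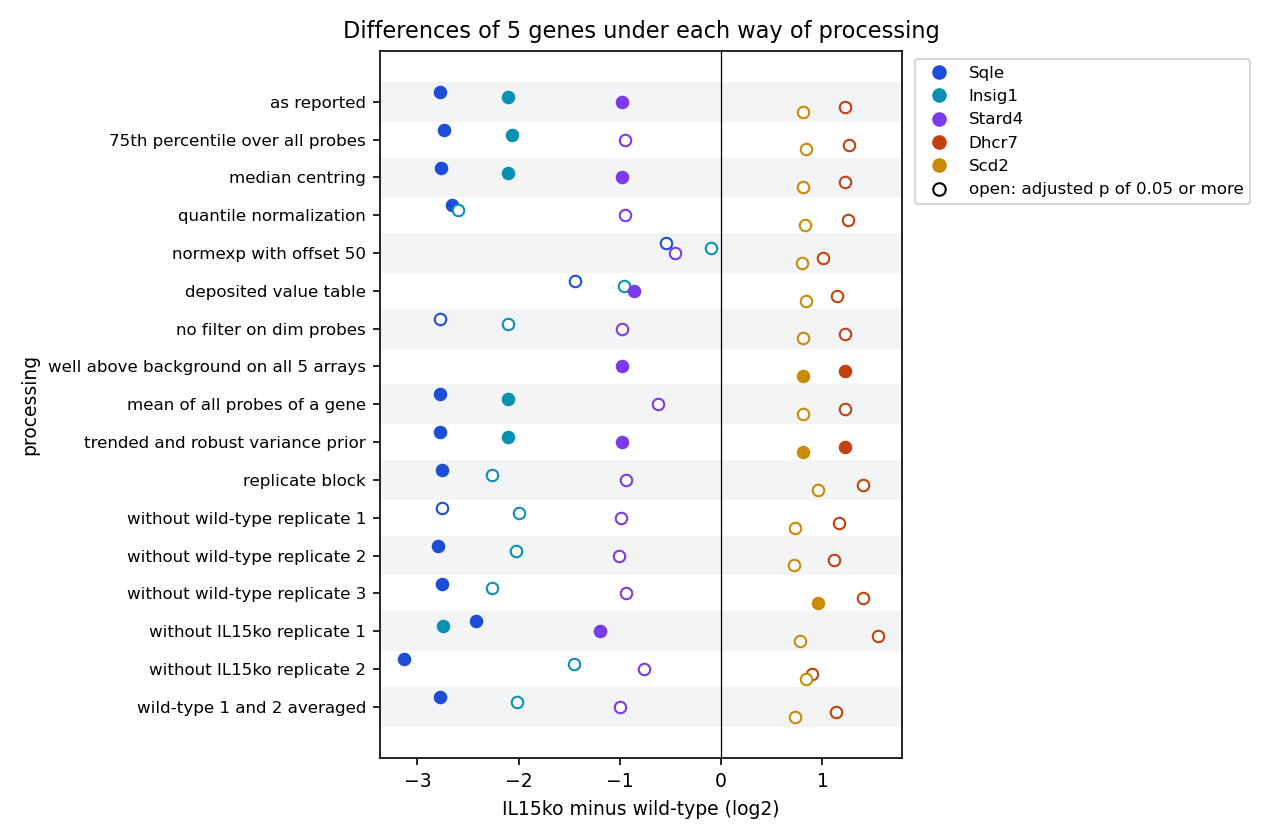
Log2 difference (x axis) of 5 genes under each way of processing (y axis), with filled circles where the adjusted p was under 0.05. Insig1 and Sqle move towards 0 with normexp and an offset of 50 (-0.10 and -0.54), whereas Dhcr7 and Scd2 stay above 0 in every setting.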

How the data were processed

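The deposited scanner output of the 5 arrays gives linear intensities per spot, read with Feature Extraction 10.7.1.1, per the file headers. Its processed signal has background subtracted and spatial trend removed array by array, with no scaling between arrays. The authors' deposited value table also holds linear intensities, with an unknown offset, and served as an alternative. All arrays were on slide 1, and IL15ko 2 was in another row of it. Control and outlier spots were left out, spots of a probe were averaged as log2, and 0 spots were saturated. Probes were named by RefSeq accession without version (26425 of 55681). Levels are log2 minus the 75th percentile over the 18519 probes that passed the background limit on all arrays. Groups were compared with limma 3.58.1 (lmFit and eBayes, R 4.3.3) without covariates. The threshold was an adjusted p of 0.05, with 3 residual and 2.28 prior degrees of freedom. Folds of genes below background throughout 1 group are approximate bounds. Normexp used median spot and background signals. The number of arrays limits the precision. The fit was tested on simulated data. The members, the lists and the rule for naming genes (any member, and of other lists those past the threshold or needed to describe a count) were chosen with earlier results of these data known. Some genes were named outside this rule, among them Abca1, Abcg1, Cpt1a, Hadha, Hadhb and several cell markers. Some genes of the other lists are not reported here and are left out of the list counts. The alternatives were other scalings, background corrections, filters and variance priors, the mean over probes, a replicate block, each array left out and wild-type 1 and 2 averaged.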

Additional observations from a re-analysis of the deposited data

How the results depend on the processing

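The members called numbered 3 as reported. They numbered 1 with quantile normalization, in the authors' deposited table, with wild-type 1 and 2 averaged and with the replicate block, 0 when dim probes were not filtered out and 0 with normexp (offset 50), and 5 with a trended and robust variance prior. Leaving out 1 array gave 0 to 3. With only genes above background on all 5 arrays it was 4, and Sqle and Insig1 were no longer among the 25 tested members. The other pathway genes called numbered 1 as reported, 0 with normexp, without the filter, with the replicate block and with wild-type 1 and 2 averaged, and 6 both with only genes above background on all arrays and with the trended prior. Leaving out 1 array gave 0 to 2. The calls over all genes moved too, from 879 to 1 with normexp, 3 without the filter, 379 with the replicate block, 96 with wild-type 1 and 2 averaged, 1517 with the trended prior, and 9, 105, 783, 336 and 192 without wild-type 1, 2 and 3 and IL15ko 1 and 2. The calls over all genes moved less with quantile normalization (821) and in the deposited table (747), where the members called numbered 1. Normexp and the missing filter moved the median of all genes to 0.22 and 0.24, against 0.01.

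Samples with the same replicate number had correlations of deviations of -0.129 (number 1) and 0.209 (number 2). With 2 IL15ko arrays their deviations mirror each other, so these values cannot settle whether the numbers pair the samples, and the labels do not say that they do. Under the replicate block Sqle was called (adjusted p = 0.0379), and Insig1 and Stard4 were not (adjusted p = 0.054 and 0.0778). The fatty-acid branch median was 0.13 as reported, -0.13 with the mean of all probes of a gene and 0.04 to 0.25 with 1 array left out. It was 0.29 with normexp and 0.30 without the filter on dim probes. The cholesterol branch median was -0.14, and -0.28 to -0.03 with 1 array left out. It was -0.05 with quantile normalization, and turned to 0.05 with normexp and 0.09 with only genes above background on all 5 arrays. None of the genes that changed sign was called either way. The log2 differences turned to 0.33 for Cyp51, 0.11 for Hsd17b7, 0.05 for Insig2, 0.03 for Srebf2, 0.12 for Lpin1, 0.29 for Fasn and 0.00 for Elovl6 with normexp, to 0.09 for Cyp51 with quantile normalization, to 0.02 for Fasn in the deposited table, to -0.14 for Acly and -0.13 for Acaca with the mean over probes, and to 0.11 for Cyp51 and 0.02 for Lpin1 under the block. The cause was not tested. With 1 array left out the differences ran from -0.03 to 0.29 for Mvd, -0.03 to 0.23 for Fdps, -0.56 to 0.35 for Cyp51, -0.31 to 0.02 for Lpin1, -0.37 to 0.01 for Hmgcs1, -0.25 to 0.01 for Elovl6, -0.17 to 0.46 for Acat2 and -0.76 to 0.25 for Fasn. Dim signals on IL15ko 2 limit what Sqle, Insig1 and Lss can show.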

Other observations

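Fatty-acid oxidation, the breakdown side of lipid metabolism, gave no call. Of 18 tested genes 0 were called by limma and 1 had an unadjusted p under 0.05, against 7.33% and 27.5% of all tested genes. A log2 difference within 0.5 of 0 was found in 17, against 70.3% of all tested genes. The median of the 18 was 0.05. Cpt1a, which lets long-chain fatty acids into mitochondria, was at -1.84, -1.73 and -1.67 in wild-type and at -1.65 and -1.67 in IL15ko (log2 difference 0.09 ± 0.13, adjusted p = 0.677). Hadha, a subunit of the mitochondrial trifunctional protein, had the smallest p of the list, with a log2 difference of 0.48 ± 0.14 (adjusted p = 0.0989), while Hadhb, its partner subunit, had one of 0.05 ± 0.14. Both genes were named after their values were seen.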
